A study of Mus musculus with 29 samples.

Results

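The natriuretic peptide system and the fetal hypertrophy genes were followed through heart failure (HF) and recovery in the mouse heart. The set held 10 of the 29,955 genes in the deposited table, taken by symbol. These were the peptides Nppa (ANP), Nppb (BNP) and Nppc (CNP), the activating protease Corin, the receptors Npr1, Npr2 and Npr3, and the hypertrophy genes Acta1, Myh7 and Ankrd1. All 10 were found in the table. Of these, 9 were tested, because Nppc did not reach a mean of 0.5 FPKM over the libraries.

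Wild-type C57BL/6J male mice, 3 months old at the start, drank water with 0.3 mg/ml L-NAME, which blocks nitric oxide synthesis, and 1% NaCl for 5 weeks. Osmotic pumps delivered angiotensin II at 0.7 mg/kg per day over the last 28 days of that period, after which every agent was withdrawn. RNA from the apical part of the heart was sequenced after 3 weeks of the protocol (HF3, 2 libraries) and at its end (HF5, 3 libraries). Recovery was sampled at week 7 (R7, 2 libraries), week 9 (R9, 2), week 11 (R11, 3), week 13 (R13, 2) and week 19 (R19, 5). The control was untreated mice of week 19 (C19, 5 libraries), which are older than the HF mice and those of R7 to R13. Age and treatment therefore cannot be told apart in any comparison between different weeks, and only R19 has a control of its own age. The study's methods describe several cohorts of mice, which the columns do not name, and the labels do not tie columns to single mice, so p-values measure the spread between these libraries, which may be technical. The treated heart still held all its cell types, and the tissue was not sorted.

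Natriuretic peptides are hormones released by the heart under wall stretch. Atrial myocytes store ANP, and the stressed ventricle re-expresses both ANP and BNP, as it does in the fetus. Corin cleaves pro-ANP, Npr1 and Npr2 are guanylyl cyclases that raise cGMP on binding peptide, and Npr3 lacks the cyclase and clears the peptides. Acta1 (skeletal alpha-actin) and Myh7 (beta-myosin heavy chain) are sarcomere genes of the fetal ventricle, and Ankrd1 encodes a stretch-responsive ankyrin repeat protein of the myocyte.

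Promoter sequences are shown for the 5 peptide and hypertrophy genes that are counted together by library further on. Each is the 250 bases before the annotated start, 5′ to 3′ on the strand of the gene, from RefSeq on GRCm38.p6. That build is later than the mm9 build on which the expression values were made. Capitals mark 3 motifs, searched on both strands and not overlapping in these windows. The MCAT element, which TEAD factors bind, was searched as CATTCC. For the element bound by GATA factors the letters were TGATAA. The box near the start that binds the general transcription machinery was searched as TATAAA. The windows are chr4:148000472-148000721, plus strand, for Nppa, and chr4:147985650-147985899, plus strand, for its neighbour Nppb. Those of the hypertrophy genes are chr8:123894776-123895025, minus strand, for Acta1, chr14:54994627-54994876, minus strand, for Myh7 (the upstream one of 2 annotated starts), and chr19:36119845-36120094, minus strand, for Ankrd1.
Nppa: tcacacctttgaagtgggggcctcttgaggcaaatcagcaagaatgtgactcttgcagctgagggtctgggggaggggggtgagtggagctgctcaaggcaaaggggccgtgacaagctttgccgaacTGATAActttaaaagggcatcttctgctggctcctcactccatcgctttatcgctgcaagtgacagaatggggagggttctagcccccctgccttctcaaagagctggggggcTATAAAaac
Nppb: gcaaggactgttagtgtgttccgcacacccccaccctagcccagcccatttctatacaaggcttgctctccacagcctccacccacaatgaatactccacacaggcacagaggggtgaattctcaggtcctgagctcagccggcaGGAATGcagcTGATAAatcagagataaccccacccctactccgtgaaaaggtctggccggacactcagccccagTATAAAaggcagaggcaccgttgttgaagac
Acta1: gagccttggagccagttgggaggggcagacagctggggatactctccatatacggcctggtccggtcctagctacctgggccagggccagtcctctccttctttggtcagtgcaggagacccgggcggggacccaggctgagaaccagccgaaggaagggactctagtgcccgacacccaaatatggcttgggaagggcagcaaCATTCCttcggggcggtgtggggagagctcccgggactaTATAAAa
Myh7: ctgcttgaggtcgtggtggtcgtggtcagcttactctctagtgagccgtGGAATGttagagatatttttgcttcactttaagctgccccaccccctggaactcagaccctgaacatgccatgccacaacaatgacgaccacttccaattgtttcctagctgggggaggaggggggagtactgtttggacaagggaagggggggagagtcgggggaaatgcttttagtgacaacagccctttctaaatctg
Ankrd1: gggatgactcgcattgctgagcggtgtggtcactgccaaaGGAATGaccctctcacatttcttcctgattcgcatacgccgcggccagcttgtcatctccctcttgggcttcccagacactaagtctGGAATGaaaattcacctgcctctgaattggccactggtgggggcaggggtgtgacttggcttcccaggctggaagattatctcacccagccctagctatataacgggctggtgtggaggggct

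The MCAT letters were present in Nppb at -105 to -100 from the start, in Acta1 at -46 to -41, in Myh7 at -201 to -196, and in Ankrd1 at 2 places, -210 to -205 and -123 to -118. They were not found in the Nppa window, in the window of the other Myh7 start (chr14:54994550-54994799, minus strand, which held none of the 3 motifs), nor in those of Nppc, Corin, Npr1, Npr2 and Npr3. Of the 32,851 windows of this length in the table, 12.6% held them. The GATA letters stood in Nppa at -122 to -117 and in Nppb at -95 to -90, beside 7.94% of all windows. The letters of the TATA box stood at -31 to -26 in Nppb and -29 to -24 in Nppc, and closer to the annotated start in Nppa (-9 to -4) and Acta1 (-7 to -2), against 12.4% of all windows that held them. These matches describe letters and were not tested as binding sites.

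FPKM (mapped fragments corrected for library size and for the length of the transcript) take length into account, so levels may be set beside each other between genes. In C19 the 2 cardiac peptides stood among the most abundant messages of the set, with a mean of 229 FPKM ± 97.4 (SD, n = 5) for Nppa and 364 FPKM ± 151 (SD, n = 5) for Nppb. Ankrd1 was at 332 ± 52.2 FPKM, Acta1 at 237 ± 121 FPKM and Myh7 at 31.2 ± 13.9 FPKM (SD, n = 5 each). The receptors and the protease were lower, at 22.0 ± 1.90 FPKM for Npr2, 16.8 ± 1.57 FPKM for Corin, 7.24 ± 0.489 FPKM for Npr1 and 1.24 ± 0.367 FPKM for Npr3 (SD, n = 5 each). Nppc was listed at 0 in 4 of the 5 control libraries.

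Depth could be read only in relative terms: over 23 libraries it ran from 0.751 to 1.40 times the median, and HF3 library 1 gave no such value and had 12,816 genes above 0, against at least 16,339 in the others. Markers of atrial myocytes, which the apex should lack, set some HF libraries apart. The summed FPKM of 7 atrial markers (Myl7, Myl4, Sln, Mybphl, Bmp10, Dkk3 and Stard10) was 45.0 to 54.6 in C19 and 32.9 to 71.0 in all recovery libraries. It was 8062 and 14472 in the HF3 libraries, and 41010, 465 and 42.2 in HF5 libraries 1, 2 and 3. Bmp10 alone of these was listed at 0 in 20 of 24 libraries, both HF3 libraries included. Outside the 4 highest libraries the sum was mostly Stard10, at 39.2 to 48.9 FPKM in C19, so the other 6 markers are also given. These summed to 5.56 to 8.99 FPKM in C19, and to 40351, 428 and 17.7 FPKM in HF5 libraries 1, 2 and 3, so that no HF5 library was at the control level in them. Results that rest on HF5 library 1 or on HF3 are therefore given with and without them. Myh6, the adult partner of Myh7, was listed at 0 in every C19, HF5 and R19 library and at 37546 FPKM or more in every other one, and Actc1, the cardiac partner of Acta1, was listed at 0 in every C19 library. Reads shared between such near-identical genes could have been placed differently between libraries, which was not tested, so Myh7 and Acta1 values carry that uncertainty. Mb was also listed at 0 in every C19 and R19 library, and Myl2 in every C19 library. Elsewhere both were at 10121.5 FPKM or more. The cause of the listed zeros was not tested.

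For the end of the protocol, HF5 was compared with C19, whose mice were older. Of the 9 genes tested, 7 rose and none fell: Nppa, Nppb, Npr1, Npr3, Acta1, Myh7 and Ankrd1. Among all 12,759 genes tested, 11.6% rose and 12.4% fell by the same rule (limma, adjusted p under 0.05). In each of the 7, every HF5 library was above every C19 library, a separation seen upward in 14.8% of all genes. Corin and Npr2 did not pass the test.

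Nppa, the ANP gene, showed the widest range. Its level was 42004, 2100 and 2214 FPKM in HF5 libraries 1 to 3, and 202, 345, 250, 269 and 81.1 FPKM in C19. Library 1 stood far above the other two, and the lowest HF5 value was still above the highest control. The log2 fold change was 4.81 (SE 0.76; limma adjusted p = 0.000309). With HF5 library 1 and the HF3 libraries left out, it was 3.38 (SE 0.60; limma adjusted p = 0.00112), and without HF5 library 2 or 3 alone it was 5.54 or 5.50. In HF5 library 3, where Nppa was at 2214 FPKM, 5 of the 7 atrial markers were above every control, with Myl7 at 6.16 FPKM against at most 1.12 FPKM in C19 and Myl4 at 8.05 FPKM against at most 6.63 FPKM. Only Stard10, at 24.5 FPKM, was below every control there. The part of these markers in the Nppa result was not tested. In bulk tissue, a change in the number of cells of a type and a change in RNA per cell cannot be told apart.

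Nppb, the BNP gene, was even across the HF5 libraries. It was at 1155, 1664 and 1610 FPKM in HF5, against 232, 358, 271, 337 and 619 FPKM in C19. Library 1, highest in Nppa, was lowest in Nppb. The log2 fold change was 2.09 (SE 0.42; limma adjusted p = 0.00165), a 4.25-fold rise on the scale of FPKM + 0.5, and it was 2.26 (SE 0.49; limma adjusted p = 0.00409) without HF5 library 1 and HF3. The 8 ventricular markers summed to 31381, 73072 and 68619 FPKM in HF5 libraries 1 to 3. Of these sums, Myl2 made up 10778, 36208 and 35940 FPKM. The part of this in the Nppb levels was not tested.

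The balance of the 2 peptides shifted by library. Nppa divided by Nppb was 36.4 in HF5 library 1, but 1.26 and 1.37 in the other two HF5 libraries. In C19 that ratio was 0.871, 0.962, 0.921, 0.796 and 0.131. Control library 5 stood apart from its group, with the lowest Nppa and the highest Nppb of the 5. Across all 14 recovery libraries the ratio lay between 0.529 (R11 library 1) and 2.53 (R7 library 1).

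Nppc, the CNP gene, is made mainly by endothelium and was close to the detection limit. It was listed at 1.13, 0.120 and 0.0638 FPKM in HF5, at 4.78 and 0.336 FPKM in HF3, and at 0.142 FPKM in a single control. No recovery library exceeded 0.152 FPKM. HF3 library 1 and HF5 library 1 were the only libraries above 1 FPKM, and both were also high in atrial markers. Because its mean was under the filter, Nppc was not tested.

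Among the receptors, Npr3, which clears the peptides, moved most. Its level was 21.7, 3.39 and 3.45 FPKM in HF5 and 1.16, 1.74, 1.13, 1.43 and 0.755 FPKM in C19. HF5 library 1 again stood far above the other two, which were still higher than every control. The log2 fold change was 2.03 (SE 0.38; limma adjusted p = 0.00114). It dropped to 1.20 (SE 0.21; limma adjusted p = 0.00115) without HF5 library 1 and HF3, so the size of the rise rests partly on that library.

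Npr1, the cyclase receptor of ANP and BNP, rose less. It was at 14.5, 10.3 and 9.85 FPKM in HF5, and at 7.57, 7.03, 6.82, 6.85 and 7.93 FPKM in C19. The groups did not overlap, and the fold was 1.54 (log2 0.62, SE 0.14; limma adjusted p = 0.00333). Without HF5 library 1 and HF3 the log2 fold change was 0.45 (SE 0.14; limma adjusted p = 0.0251). Npr1 is also expressed in endothelium and endocardium, whose 8 markers summed to 382 to 509 FPKM in HF5 and 263 to 329 FPKM in C19. Of these 8 markers, 5 rose, next to 11.6% of all genes. The part of this in the Npr1 result was not tested.

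Npr2, the CNP receptor, ran from 21.2 to 28.8 FPKM in HF5 and from 19.4 to 24.4 FPKM in C19. These ranges overlapped, and the log2 difference was 0.17 with a 95% interval of -0.17 to 0.50 (limma adjusted p = 0.486).

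Corin, the protease of pro-ANP, differed among the HF5 libraries. It was at 29.3, 13.6 and 9.02 FPKM there, against 15.5, 16.3, 16.7, 19.5 and 16.02 FPKM in C19. Library 1 was above every control and the other two were below every control. Over all 3 the log2 difference was -0.12 (SE 0.31; limma adjusted p = 0.810), and without HF5 library 1 and HF3 Corin fell by 0.58 on the log2 scale (SE 0.20; limma adjusted p = 0.0467). Leaving out HF5 library 3 alone gave 0.25, with the opposite sign, so no direction holds over these libraries. Without HF5 library 1 and HF3, 8 of the 9 genes were called, next to 20.2% of all genes, and with HF5 library 3 as the only HF library 5 were (Nppa, Nppb, Npr3 and Acta1 higher, Corin lower), next to 10.1%. In that last fit the lone HF5 library is assumed to vary like the other groups.

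The hypertrophy genes rose in every HF5 library. Myh7 was at 237, 229 and 141 FPKM in HF5 and 21.2, 27.0, 43.4, 48.1 and 16.3 FPKM in C19. Even the lowest HF5 library was well clear of the highest control, and the log2 fold change was 2.76 (SE 0.51; limma adjusted p = 0.000994). Leaving out HF5 library 1 and HF3, it was 2.62 (SE 0.58; limma adjusted p = 0.00481).

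Acta1 was at 578, 1317 and 1236 FPKM in HF5, beside 227, 436, 153, 237 and 129 FPKM in C19. Here HF5 library 1 was the lowest of the 3, opposite to its place in Nppa and Npr3. The log2 fold change was 2.18 (SE 0.43; limma adjusted p = 0.00145), and 2.56 (SE 0.44; limma adjusted p = 0.000829) without HF5 library 1 and HF3. Acta1 is also the main actin of skeletal muscle, whose 9 markers summed to 33.1, 9.92 and 8.54 FPKM in HF5 libraries 1 to 3, to 96.8 and 26.4 FPKM in HF3, and to 5.57 to 8.31 FPKM in C19. Of the 9, Tnnt3 was at 1.00 to 5.65 FPKM in HF5 and 8.56 to 11.3 FPKM in HF3, against 0.420 to 0.638 FPKM in C19, and Tnni2 was at 83.3 and 10.3 FPKM in HF3, against 2.82 to 4.16 FPKM. Pvalb was above every control in all 5 HF libraries, at 0.594 to 16.6 FPKM against at most 0.264 FPKM, whereas Tnnc2 was below every control in HF3, at 0 and 0.0849 FPKM against 0.628 to 1.21 FPKM, and Mylpf was listed at 0 in HF3 library 1. The fast myosins Myh1, Myh2 and Myh4 were above 0 in 7, 9 and 2 of 24 libraries. The part of skeletal markers in the Acta1 result was not tested.

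Ankrd1 was at 708, 954 and 643 FPKM in HF5 and at 273, 388, 292, 383 and 322 FPKM in C19. It was the tightest of the hypertrophy genes among controls, with a coefficient of variation of 15.7%, against 51.1% for Acta1 and 44.6% for Myh7. Its log2 fold change was 1.20 (SE 0.25; limma adjusted p = 0.00233), and 1.25 (SE 0.30; limma adjusted p = 0.00720) without HF5 library 1 and HF3.

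**Figure D1:**
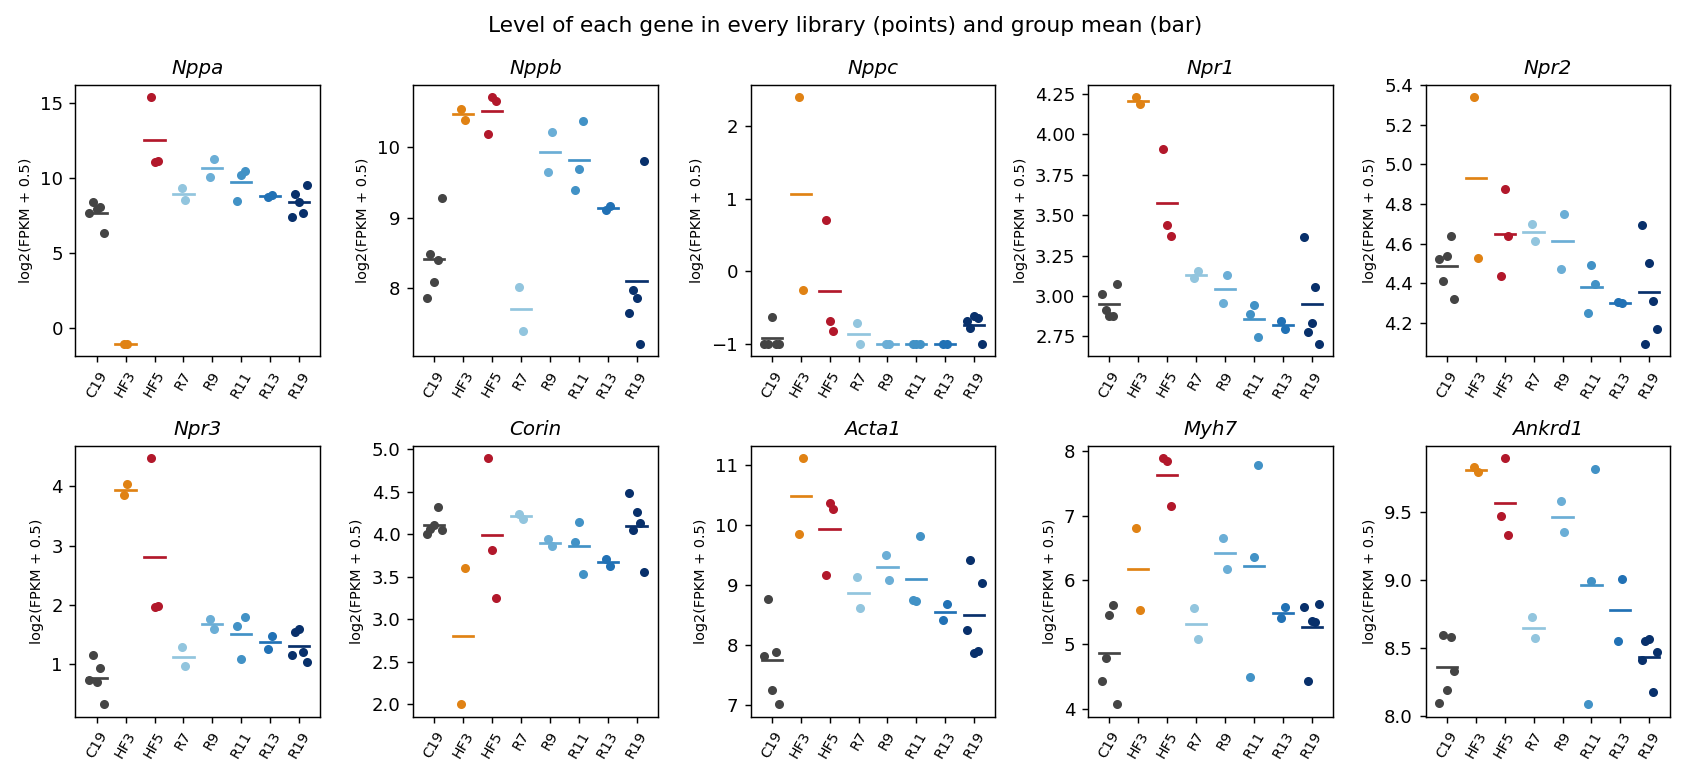
Each panel plots 1 gene, with log2(FPKM + 0.5) on the vertical axis and the 8 groups on the horizontal axis (C19, control; HF3 and HF5, heart failure; R7 to R19, recovery). Points are libraries and bars are group means. Nppb, Acta1, Myh7 and Ankrd1 stand above C19 in HF5, lie lower at R7 than in HF5 and stand higher again in several R9 and R11 libraries, while Nppa is listed at 0 in both HF3 libraries.

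HF3 showed how early the set had moved. Nppa was listed at 0 in both HF3 libraries, although other atrial genes were abundant there, with Myl7 at 1805 and 5773 FPKM. Since a listed 0 of so abundant a gene may be a failed estimate, Nppa was not tested in HF3. Of the other 8 genes tested, 6 rose against C19 (Nppb, Npr1, Npr2, Npr3, Acta1 and Ankrd1) and Corin fell, next to 23.1% of all genes that rose and 27.6% that fell. Over single libraries left out, 5 to 8 of the 8 were called: without HF3 library 1 the calls of Npr2 and Corin were lost (5 called, next to 30.1% of all genes), and without HF3 library 2 all 8 were called (62.9%). Both HF3 libraries were high in atrial markers, and other markers were above every control there as well. The sums were 747 and 740 FPKM for fibroblasts (253 to 360 FPKM in C19), 547 and 607 FPKM for endothelium (263 to 329 FPKM) and 96.8 and 26.4 FPKM for skeletal muscle (5.57 to 8.31 FPKM). They were 191 and 156 FPKM for smooth muscle (77.6 to 105 FPKM) and 190 and 176 FPKM for immune cells (90.0 to 168 FPKM). The part of these markers in the HF3 results was not tested.

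Nppb was at 1487 and 1331 FPKM in HF3, within the range of HF5, and its log2 fold change against C19 was 2.04 (SE 0.48; limma adjusted p = 0.00168). Npr3 was at 13.9 and 15.9 FPKM, a log2 fold change of 3.17 (SE 0.44; limma adjusted p = 1.54e-05). Npr1 was at 18.3 and 17.7 FPKM, higher than in any other library, with a log2 fold change of 1.26 (SE 0.16; limma adjusted p = 4.75e-06). The transcripts of BNP and of these receptors were thus higher in HF3 than in C19. Ankrd1 was at 911 and 889 FPKM, a log2 fold change of 1.45 (SE 0.29; limma adjusted p = 0.000433). Acta1 was at 922 and 2218 FPKM, and its log2 fold change was 2.73 (SE 0.49; limma adjusted p = 0.000174). Myh7, at 111 and 45.9 FPKM, overlapped the controls and did not pass the test (log2 1.3, SE 0.59; limma adjusted p = 0.0702). For Npr2, the 2 libraries were apart, at 40.0 and 22.5 FPKM, and its log2 fold change was 0.45 (SE 0.18; limma adjusted p = 0.0483). Corin was at 3.49 and 11.7 FPKM, below every control, and fell by 1.31 on the log2 scale (SE 0.36; limma adjusted p = 0.00528).

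From HF3 to HF5, 1 of 8 genes fell (8.28% of all genes did) and 1 rose (13.1% of all genes). Npr1 fell by 0.64 on the log2 scale (SE 0.17; limma adjusted p = 0.0186) and Corin rose by 1.19 (SE 0.39; limma adjusted p = 0.0381). Corin was at 29.3 FPKM in HF5 library 1, against 13.6 and 9.02 FPKM in HF5 libraries 2 and 3. HF5 library 3 was below HF3 library 2, at 11.7 FPKM. The size of the Corin rise thus rests partly on HF5 library 1. For Nppb the difference was 0.05, with a 95% interval of -1.03 to 1.13. Myh7 was higher in every HF5 library than in either HF3 library, without passing the test (log2 1.46, SE 0.64; limma adjusted p = 0.1005). These calls were few and not stable to single libraries, with 0 genes called without HF3 library 1 (1.31% of all genes) or without HF5 library 2 (7.51%), 1 without HF5 library 3 (10.6%), and 3 without HF3 library 2 (53%).

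Withdrawal was first sampled at R7, 2 weeks later. Against HF5, 4 of the 9 genes fell at R7 (Nppa, Nppb, Npr3 and Myh7) and none rose, next to 6.75% of all genes that fell and 8.05% that rose. Nppb was at 260 and 167 FPKM, in or below the control range, a drop of 2.80 on the log2 scale (SE 0.52; limma adjusted p = 0.00224). Nppa was at 657 and 370 FPKM and fell by 3.55 (SE 0.96; limma adjusted p = 0.0185), although both R7 values were still above every control. Myh7 was at 46.8 and 33.4 FPKM and fell by 2.30 (SE 0.64; limma adjusted p = 0.0220). Npr3, at 1.96 and 1.45 FPKM, fell by 1.67 (SE 0.48; limma adjusted p = 0.0253). Acta1, at 561 and 394 FPKM, and Ankrd1, at 424 and 381 FPKM, were below every HF5 library but did not pass the test (limma adjusted p = 0.190 and 0.0555). The count was 3 without HF5 library 1 and HF3 (6.65% of all genes fell then), where Nppa no longer passed (log2 -2.13; limma adjusted p = 0.0534) and the fall of Npr3 was smaller (log2 -0.84, SE 0.26; limma adjusted p = 0.0348), and 1 (Nppb) without HF5 library 1 alone, R7 library 1 or R7 library 2, where 2.42%, 1.1% and 1.14% of all genes fell.

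Between R9 and R13 the set did not sit at control level in every library, as the heat map of all libraries shows. No gene was called against C19 at R7, R9, R11 or R13 or over the 4 times together (limma, 0 of 9 each), where 0.047%, 0.0549%, 0.149%, 0.0784% and 0.0705% of all genes were called in either direction. At an unadjusted p under 0.05, the numbers higher were 1 (R7), 5 (R9), 5 (R11), 0 (R13) and 6 (together) of 9, and none was lower. For all genes, the shares past that unadjusted threshold in either direction were 3.61%, 3.60%, 8.45%, 10.4% and 6.90%. Without R11 library 1, Myh7 and Ankrd1 were called higher at R11, next to 0.485% of all genes. No gene was called at any of these times when HF5 library 1 and HF3 were left out. The numbers higher at an unadjusted p under 0.05 were then 1 (R7), 6 (R9), 6 (R11), 1 (R13) and 6 (together) of 9, with Corin lower at R13. Of all genes, 8.51%, 7.92%, 15.4%, 17.8% and 13.1% passed that threshold in either direction.

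Nppa was above every control in all 9 libraries of R7 to R13, a separation seen upward in 0.392% of all genes. Its values were 1075 and 2426 FPKM at R9, 354, 1188 and 1421 FPKM at R11, and 418 and 468 FPKM at R13. R9 library 2 was above HF5 libraries 2 and 3, at 2100 and 2214 FPKM. Over the 9 libraries the log2 difference from C19 was 1.83 with a 95% interval of 0.61 to 3.06 (unadjusted p = 0.00548; limma adjusted p = 0.477).

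Nppb stood at 797 and 1179 FPKM at R9 and at 668, 827 and 1317 FPKM at R11, all 5 above every control. At R13 it was at 551 and 574 FPKM, below the highest control. R7 was lower than all of these, so Nppb did not fall steadily with time after withdrawal. At R9 the log2 difference from C19 was 1.5 (SE 0.48; unadjusted p = 0.00508; limma adjusted p = 0.926), and at R11 it was 1.39 (SE 0.42; unadjusted p = 0.00322; limma adjusted p = 0.214).

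The hypertrophy genes, like Nppb, had higher means at R9 and R11 than at R7. Myh7 was at 100 and 71.9 FPKM at R9 and at 22.0, 81.7 and 220 FPKM at R11. R11 library 3 reached the HF5 range, while R11 library 1 was as low as the controls. Ankrd1 was at 765 and 655 FPKM at R9, and at 272, 510 and 900 FPKM at R11. Acta1 was at 725 and 545 FPKM at R9 and at 430, 425 and 902 FPKM at R11.

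Counted by library, Nppa, Nppb, Acta1, Myh7 and Ankrd1 were all 5 above every control in R9 library 1, R9 library 2 and R11 library 3. R11 library 2 had 4 of the 5 above (all but Acta1), and R11 library 1 had 2 (Nppa and Nppb). In R7 and R13 the number was between 1 and 3. In R19 library 5, 4 of the 5 were above every control (all but Ankrd1), in library 2 there were 2 (Nppa and Acta1), and in the other 3 none was. Among all genes tested, 13.1%, 20.1% and 24.8% were above every control in R9 library 1, R9 library 2 and R11 library 3, and 27.8% and 21.5% in R19 libraries 5 and 2. That share was 17.6% and 15.8% in R11 libraries 1 and 2, 19.6% and 20.6% at R7, and 22.9% and 21.4% at R13. The counts of 1 of 5 in R7 library 2 and R13 library 1 were thus near the share of all genes.

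Markers of other cells differed in these libraries too. The atrial markers other than Stard10 summed to 8.60 and 10.8 FPKM at R9 and to 8.21, 14.7 and 15.3 FPKM in R11 libraries 1 to 3, against 5.56 to 8.99 FPKM in C19. Myl7 was at 1.57 to 1.72 FPKM at R9 and 1.84 to 2.59 FPKM at R11, above every control. Of the 7 atrial markers, 3 and 2 were above every control in the R9 libraries and 2, 5 and 5 in the R11 libraries. In R13 library 1, where only Nppa of the 5 genes was above every control, the atrial sum without Stard10 was 14.1 FPKM and Myl7 was at 3.56 FPKM, its highest value in any recovery library. The fibroblast markers summed to 345 and 398 FPKM at R9 to 411 to 679 FPKM at R11 and to 389 and 504 FPKM at R13, against 253 to 360 FPKM in C19. Immune markers summed to 183 to 281 FPKM at R11 and 213 to 308 FPKM at R13, above every control (90.0 to 168 FPKM), and to 84.7 and 162 FPKM at R9. In R19 libraries 2 and 5 the immune sums were 312 and 298 FPKM and the fibroblast sums 458 and 432 FPKM, all above every control. R19 library 4, in which none of the 5 genes was above every control, had sums of 181 and 363 FPKM, also above every control. The part of these markers in the results was not tested.

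The receptors and Corin were given the same comparison. Npr1 was between 6.19 and 8.39 FPKM and Npr2 between 18.5 and 26.4 FPKM over the 9 libraries of R7 to R13. Npr3 ran from 1.45 to 2.98 FPKM and Corin from 11.1 to 18.4 FPKM. Over those libraries the log2 difference from C19 was 0.01 for Npr1 (95% interval -0.21 to 0.23) and 0.00 for Npr2 (95% interval -0.25 to 0.26). For Npr3 it was 0.65 (95% interval 0.03 to 1.26; limma adjusted p = 0.687), and without HF5 library 1 and HF3 the interval was 0.35 to 0.95 (unadjusted p = 0.000259; limma adjusted p = 0.0508). Nppa had the same adjusted p of 0.0508 in that limma fit.

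**Figure D2:**
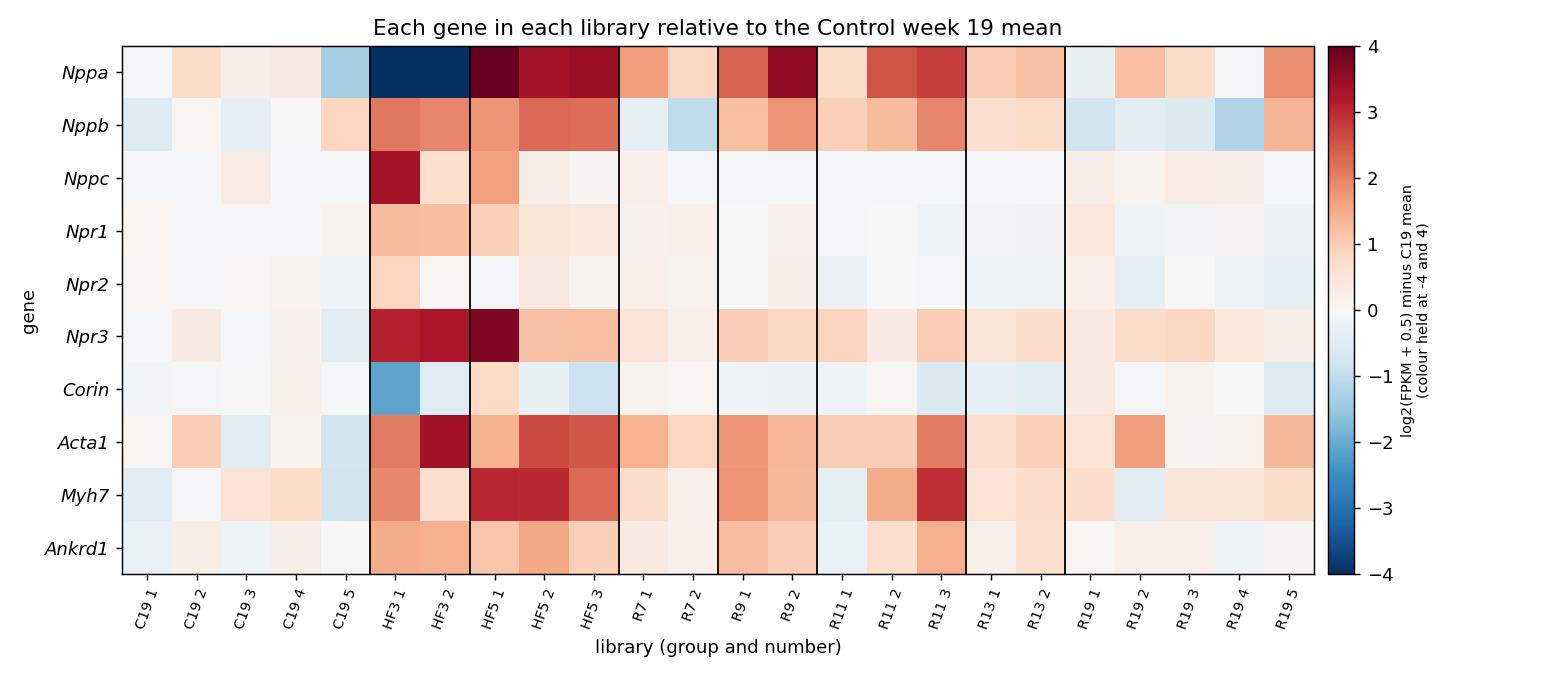
Rows are the 10 genes and columns the 24 libraries, ordered by group; colour gives log2(FPKM + 0.5) minus the C19 mean, held at -4 and 4. R9 libraries 1 and 2 and R11 library 3 are red in Nppa, Nppb, Acta1, Myh7 and Ankrd1, whereas R11 library 1 is near white in Myh7 and Ankrd1.

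By R19, 14 weeks after withdrawal, the genes raised in HF5 had fallen. Against HF5, 7 of 9 genes fell and none rose, next to 12% of all genes that fell and 12.3% that rose. They were the 7 that had risen from C19 to HF5, and both comparisons share the HF5 libraries. In 6 of them, all but Acta1, no R19 library reached the lowest HF5 library, a separation seen downward in 12.7% of all genes. Some markers of other cells were lower at the same times. The endothelial sum was 382 to 509 FPKM in HF5, 256 to 280 FPKM at R7 and 282 to 299 FPKM at R19, and the smooth muscle sum was 145 to 237, 78.2 to 80.3 and 79.1 to 104 FPKM, without overlap with HF5. Atrial markers other than Stard10 summed to 17.7 to 40351 FPKM in HF5, 6.28 and 9.63 FPKM at R7 and 4.10 to 7.49 FPKM at R19. Fibroblast sums at R19, 312 to 458 FPKM, overlapped those of HF5, 357 to 707 FPKM, as did immune sums, at 136 to 312 FPKM and 118 to 217 FPKM. At R7 the fibroblast sums were 269 and 355 FPKM, below every HF5 library. The part of these markers in the falls was not tested.

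Nppa was at 170, 477, 343, 199 and 746 FPKM in R19 and fell by 4.12 on the log2 scale (SE 0.76; limma adjusted p = 0.000979), or by 2.69 (SE 0.60; limma adjusted p = 0.00470) without HF5 library 1 and HF3. Without HF5 library 2 or 3 alone the change was -4.85 or -4.81. Nppb was at 201, 250, 232, 149 and 889 FPKM and fell by 2.41 (SE 0.42; limma adjusted p = 0.000569). R19 library 5 was the highest of its group in both peptides. Myh7, at 47.2, 21.2, 40.7, 40.3 and 48.7 FPKM, fell by 2.36 (SE 0.51; limma adjusted p = 0.00302).

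Ankrd1 was closely grouped at 340, 375, 380, 289 and 356 FPKM and fell by 1.13 (SE 0.25; limma adjusted p = 0.00363). Acta1 was at 306, 682, 234, 240 and 527 FPKM, so that R19 library 2 exceeded HF5 library 1. It fell by 1.44 (SE 0.43; limma adjusted p = 0.0195), a call lost without HF5 library 2 (limma adjusted p = 0.0790), without HF5 library 3 (0.0766) and in an exact two-sided permutation test (p = 0.0536). Npr1 was at 9.81, 6.36, 6.62, 7.81 and 6.02 FPKM and fell by 0.63 (SE 0.14; limma adjusted p = 0.00323). The highest R19 value of Npr1, in library 1, lay just under the lowest HF5 value.

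Npr3 was at 1.74, 2.41, 2.53, 1.82 and 1.56 FPKM in R19 and fell by 1.49 (SE 0.38; limma adjusted p = 0.00875). That call was lost without HF5 library 1 alone (log2 -0.66; limma adjusted p = 0.0519) and with only R19 and HF5 in the fit (limma adjusted p = 0.0671), and it was kept without HF5 library 1 and HF3 (log2 -0.66, SE 0.21; limma adjusted p = 0.0345). With the same libraries left out, all 9 genes were called, next to 22.2% of all genes, with Npr2 also lower (log2 -0.40, SE 0.14; limma adjusted p = 0.0449) and Corin higher (log2 0.56, SE 0.20; limma adjusted p = 0.0480). With HF5 library 3 as the only HF library, Nppa and Nppb were lower and Corin higher, and no other gene was called (10.1% of all genes were).

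**Figure D3:**
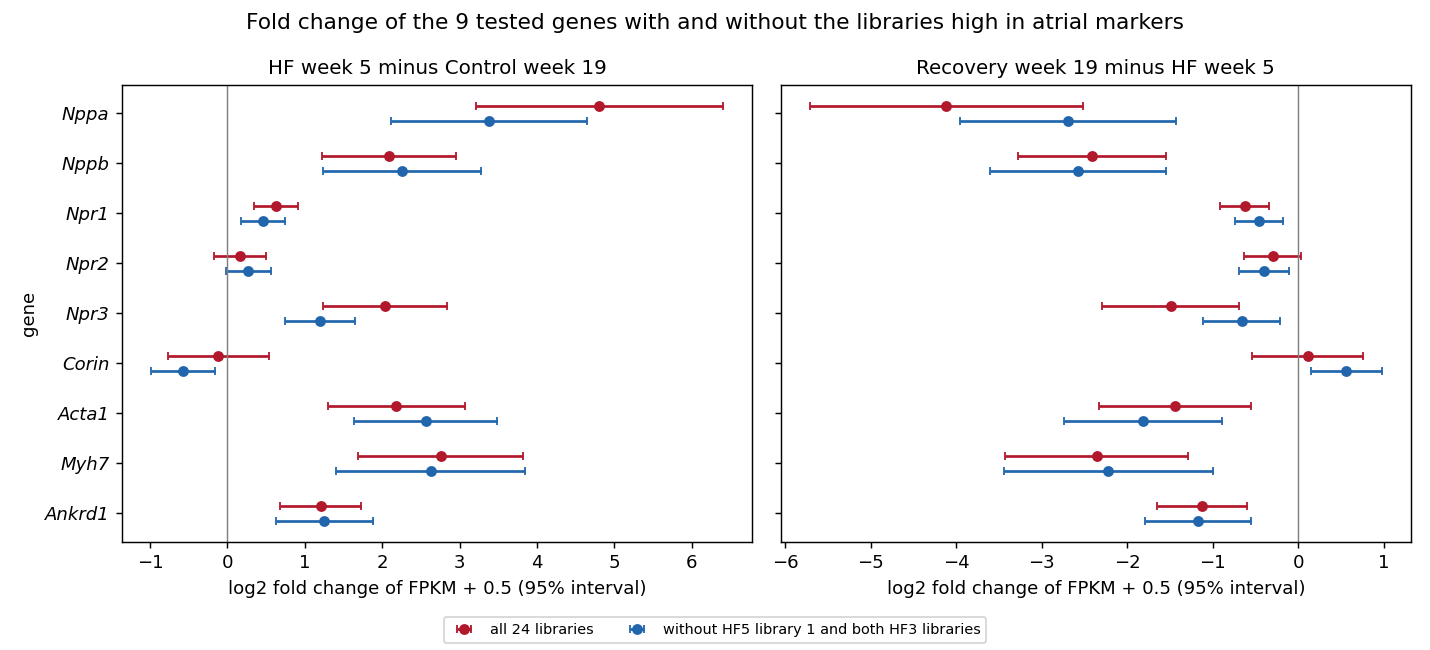
Log2 fold change of FPKM + 0.5 with its 95% interval on the horizontal axis, for the 9 tested genes on the vertical axis. Red uses all 24 libraries and blue leaves out HF5 library 1 and both HF3 libraries. The Nppa and Npr3 points move towards 0 in blue (Nppa from 4.81 to 3.38 and Npr3 from 2.03 to 1.20 in HF5 minus C19), and Corin moves away from 0.

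Whether the set was back at control level was asked by comparing R19 with C19. None of the 9 genes was called (limma; 0 at an unadjusted p under 0.05 as well), next to 0.0235% of all genes, or 2.88% at the unadjusted threshold. None was called either without HF5 library 1 and HF3, which enter the shared estimate of the spread, while Npr3 and Acta1 were higher at an unadjusted p under 0.05 (unadjusted p = 0.00378 and 0.0377 in limma), next to 6.55% of all genes. The ranges of every gene overlapped between these groups. The intervals were narrow for Npr1 (log2 difference 0.00, 95% interval -0.25 to 0.24), for Npr2 (-0.13, -0.42 to 0.16) and for Ankrd1 (0.08, -0.38 to 0.53). They were wide for Nppa (0.69, -0.69 to 2.07), Nppb (-0.32, -1.07 to 0.43), Acta1 (0.75, -0.03 to 1.52) and Myh7 (0.40, -0.53 to 1.32), whose intervals each include a 2-fold difference in 1 direction. Over single libraries left out, the log2 difference ran from 0.35 to 0.93 for Nppa and from 0.20 to 0.61 for Myh7. Both were lowest without C19 library 5.

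Npr3 was the gene with the most even shift between R19 and C19. Every R19 library was above 4 of the 5 controls, and control library 2, at 1.74 FPKM, lay among the R19 values. The log2 difference was 0.54 (95% interval -0.16 to 1.23; limma adjusted p = 1), or 0.54 with a narrower interval of 0.20 to 0.88 without HF5 library 1 and HF3 (unadjusted p = 0.00378; limma adjusted p = 0.396). An exact two-sided permutation test gave p = 0.0238, where the smallest p possible was 0.00794. This p is not adjusted for the other genes of the set tried by that test, Nppc included. The group means of Npr3 were 2.10 FPKM in R13, 2.01 FPKM in R19 and 1.24 FPKM in C19, and neighbouring groups overlapped from R9 down to C19.

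The order of group means differed by gene, and most neighbours in it overlapped. For Nppb the order was HF5, HF3, R9, R11, R13, C19, R19 and R7, with gaps without overlap only between HF3 and R9 and between R11 and R13. For Npr1 it was HF3, HF5, R7, R9, R19, C19, R11 and R13, with HF3 above HF5 and HF5 above R7 without overlap. Myh7 was highest in HF5, then R11, R9 and HF3, and every pair of neighbours overlapped. In Ankrd1, HF3, HF5, R9 and R11 formed an overlapping series from 900 to 560 FPKM. In R19 minus the mean of R7 to R13, the log2 difference was -1.04 for Nppb (SE 0.32; unadjusted p = 0.00384; limma adjusted p = 0.416) and -0.53 for Ankrd1 (SE 0.19; unadjusted p = 0.0127; limma adjusted p = 0.547), both lower at R19, and no gene was called, next to 0.0392% of all genes (7.33% at the unadjusted threshold). Without R19 library 5, Nppb was called lower, next to 0.133% of all genes.

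**Figure D4:**
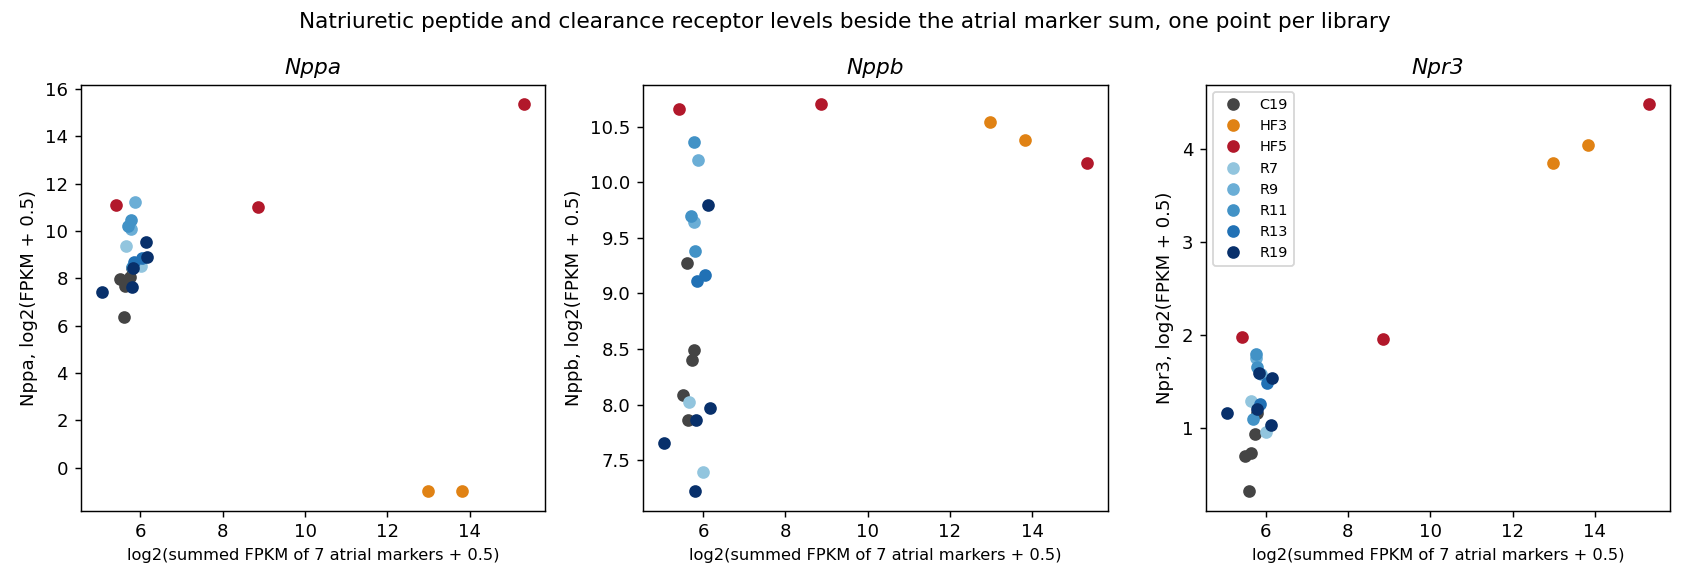
Each point is a library, with log2 of the summed FPKM of 7 atrial markers (+ 0.5) on the horizontal axis and log2(FPKM + 0.5) of Nppa, Nppb or Npr3 on the vertical axis. HF5 library 1 and both HF3 libraries lie far to the right. Npr3 is highest in those 3 libraries, Nppa is highest in HF5 library 1 and listed at 0 in HF3, and Nppb is as high in HF5 library 3 as in the other HF libraries. That library has a marker sum of 42.2 FPKM, of which Stard10 makes up 24.5 FPKM.

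Other genes of the same pathways were taken from 6 lists. Their counts stand beside 11.6% of all genes that rose and 12.4% that fell from C19 to HF5, or 4.21% and 6.45% without HF5 library 1. HF3 stayed in that second fit, while the fit of the members without HF5 library 1 and HF3 called 20.2% of all genes. A call lost here is thus not to be set beside a call kept there. Of 6 tested genes that process or clear the peptides, 2 rose and 2 fell from C19 to HF5, with a median log2 change of -0.23 beside 0.04 for all genes. Furin, a convertase that cleaves pro-BNP, fell from 23.0 ± 5.65 FPKM (SD, n = 5) to 14.1 ± 1.31 FPKM (SD, n = 3; log2 -0.65, limma adjusted p = 0.0125) and Mme, neprilysin, which degrades the peptides, fell by 0.60 (limma adjusted p = 0.0354). Ece1 rose by 0.73 (limma adjusted p = 0.0182) and Dpp4 by 0.95 (limma adjusted p = 0.0488). Of these calls only that of Furin held without HF5 library 1 (limma adjusted p = 0.0324), where the log2 changes of Mme, Ece1 and Dpp4 were -0.52, 0.36 and 0.47.

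Downstream of the receptors, 3 of 8 tested genes of cGMP production and its effectors rose and none fell (median 0.18). Gucy1a3 and Gucy1b3, the subunits of the nitric oxide receptor guanylyl cyclase, rose by 1.04 (SE 0.22; limma adjusted p = 0.00235) and 0.50 (SE 0.14; limma adjusted p = 0.0166). Mrvi1, a target of cGMP-dependent kinase, rose by 1.14 (SE 0.27; limma adjusted p = 0.00540). Without HF5 library 1, 4 rose and 1 fell, and Mrvi1 was higher by 0.56. Among 8 phosphodiesterases, 2 rose and 1 fell (median 0.36), also without HF5 library 1, and the 1 of 8 that fell is near the share of all genes. Pde9a, selective for cGMP, rose by 1.20 (SE 0.24; limma adjusted p = 0.00182), Pde1b rose by 0.69 (SE 0.15; limma adjusted p = 0.00251), and Pde3a, which cGMP inhibits, fell by 1.39 (SE 0.30; limma adjusted p = 0.00300). The rise of Pde9a was 0.78 without HF5 library 1.

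Of 20 tested transcription factors linked to the peptide promoters, 8 fell and 1 rose, with a median of -0.51. Hand2 fell by 1.53 (SE 0.34; limma adjusted p = 0.00391), Mef2d by 1.16 (SE 0.32; limma adjusted p = 0.0131) and Myocd by 1.08 (SE 0.27; limma adjusted p = 0.00702), while Nfatc4, a factor of calcineurin signalling, rose by 0.92 (SE 0.20; limma adjusted p = 0.00307). Without HF5 library 1, 3 fell and 1 rose, and Mef2d (log2 -0.90) and Myocd (log2 -0.84) no longer passed.

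A further 19 genes of the hypertrophic response gave 10 that rose and none that fell (median 0.57), or 4 and none without HF5 library 1. The largest changes were Ctgf (connective tissue growth factor; log2 2.16, SE 0.21; limma adjusted p = 5.33e-06), Tnni1 (the fetal troponin I; 1.68, SE 0.54; limma adjusted p = 0.0290), Sprr1a (1.23, SE 0.38; limma adjusted p = 0.0262) and Mfap5 (1.22, SE 0.35; limma adjusted p = 0.0170). Of these, Ctgf held without HF5 library 1 (log2 1.91; limma adjusted p = 6.65e-05). Mfap5 and Sprr1a did not pass then, at log2 0.94 and 0.90, and Tnni1 was under the filter. Mfap5 was at 80.6, 41.8 and 47.7 FPKM in HF5 and at most 27.8 FPKM in C19, so all 3 HF5 libraries were above every control. Among 16 tested adult sarcomere and calcium handling genes, 5 fell and none rose (median -0.47), or 3 and none without HF5 library 1, of which the largest changes were Pln (phospholamban, log2 -0.87; limma adjusted p = 0.0157), Kcnd2 (-0.76; 0.0124), Slc8a1 (the sodium-calcium exchanger, -0.73; 0.000592) and Atp2a2 (SERCA2, -0.70; 0.00388). The calls of Pln and Kcnd2 were lost without HF5 library 1, at log2 -0.36 and -0.60. A further 4 of that list were listed at 0 throughout a group and were not tested. No gene of the 6 lists was called between R19 and C19 or between R7 to R13 and C19.

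Markers of other cells moved with these results. From C19 to HF5, 6 of 8 fibroblast markers, 5 of 8 endothelial markers and 3 of 5 smooth muscle markers rose. Of all genes, 11.6% rose. None of 6 immune markers passed the test. Without HF5 library 1 the fibroblast, endothelial and smooth muscle counts were 1, 4 and 1, next to 4.21% of all genes. In HF5 libraries 2 and 3, 2 and 7 of the 8 fibroblast markers were above every control. So were 5 and 8 of the 8 endothelial markers and all 5 smooth muscle markers. Of all genes, 28.9% and 29.8% were above every control in these libraries. Fibroblast sums were 357 to 707 FPKM in HF5 and 253 to 360 FPKM in C19, and their part in the pathway results was not tested.

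Genes whose log2 level ran most like a member over the 24 libraries are given as description, since the libraries share groups and many genes. For Nppb these were Hn1 (r = 0.92), Kctd17 (0.89) and Uchl1 (0.87), and Hn1 was first also over the 22 libraries without HF3 (r = 0.92). Npr3 ran with Gpm6a (r = 0.97), Smoc1 (0.96) and Cdh11 (0.96), and Gpm6a, like Npr3, was highest in the HF3 libraries (9.99 and 12.95 FPKM) and in HF5 library 1 (8.22 FPKM). Ankrd1 ran with Lman1l and Mybpc2 (r = 0.85 each), Myh7 with Igfbp3 (0.82) and Acta1 with Pamr1 (0.84). Leaving out HF3 brought Tgfb2 to the first place for Myh7 (r = 0.89) and Spsb2 for Acta1 (0.83).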

How the data were processed

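Heart RNA was enriched for poly(A), sequenced as paired ends, aligned by the authors with TopHat2 to mm9 and quantified with Cuffdiff, and the deposited values are FPKM for 29,955 genes. Cuffdiff divides by length and library, so depth is lost except in relative form, and genes of very high level can be listed at 0. Of the columns, 24 were matched to 8 groups by their names. A further 5 columns of Control week 5 were not used, because the labels give 4 samples for them. R9 has 3 labelled samples and 2 columns.

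Values were analysed as log2(FPKM + 0.5), and fold changes are on that scale, which understates changes of low genes. Those averaging 0.5 FPKM or more over the libraries (12,759 genes) were fitted with limma 3.58.1 in R 4.3.3 (group means, 8 groups, 16 residual degrees of freedom, trended variance, two-sided, Benjamini-Hochberg over all genes, threshold 0.05). Genes listed at 0 in every library of a compared group were not tested. Intervals are 95%. Relative depth came from the ratios of low values between libraries. In none of 276 library pairs were all values identical. On simulated data for HF5 against C19 with 12,759 genes, 64% and 74% of genes raised or lowered by 1 (log2) were called, and 98% and 96% of those changed by 2. The simulation drew normal noise of equal spread in all groups, unlike the uneven HF libraries, so these shares are not the power of the real tests.

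The members, the pathway and marker lists and the tests were chosen with earlier results of these data known. The text names all members, at most 4 called genes per pathway list with the largest change from C19 to HF5, and up to 3 genes most like a member by Pearson's r. The pathway lists hold natriuretic peptide processing and clearance, cGMP production, phosphodiesterases, transcription factors, the hypertrophic response and adult sarcomere genes. The marker lists cover atrial and ventricular myocytes, skeletal muscle, endothelium, fibroblasts, smooth muscle, immune cells and red blood cells (2 of 4 genes in the file). Alternatives changed the pseudocount (0.1, 1), the filter, the scaling, the fit and the libraries used. Those without HF5 library 1 and HF3, and the atrial sum without Stard10, were added after seeing the data. Promoters were taken from RefSeq for all 10 genes (11 starts).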

Additional observations from a re-analysis of the deposited data

Results flagged for a closer look

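In groups of 5 libraries (C19 and R19), a value was singled out when its gap to the nearest library exceeded 0.71 of the group's range, which chance gives in about 1 of 20 groups. Over 20 such groups of the 10 genes, 2 values met this. Nppb in R19 library 5 was at 889 FPKM, against 149 to 250 FPKM in the other 4, a gap of 0.863 of the range. That library was also the highest of R19 in Nppa (746 FPKM) and the lowest in relative depth (0.751) and in Corin (11.2 FPKM). Its immune marker sum was 298 FPKM (90.0 to 168 FPKM in C19) and its fibroblast sum 432 FPKM (253 to 360 FPKM), and their part was not tested. Without it, the log2 difference of Nppb from C19 was -0.75, against -0.32 with it. Nppc in C19 library 3 was at 0.142 FPKM, with the other 4 controls listed at 0, a level close to the detection limit.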

How the results depend on the processing

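The 7 genes called from C19 to HF5 stayed at 7 under every pseudocount, filter, scaling and single library left out, and were 8 without HF5 library 1 and HF3 (7 higher and Corin lower) and 5 with HF5 library 3 alone. From HF5 to R19 the count was 6 to 7 over single libraries left out and 3 with HF5 library 3 as the only HF library. Between HF3 and HF5 it was 1 without a filter on low values and 4 at unadjusted p, and 0 to 3 over single libraries left out. For the HF3 to HF5 counts without a filter and at unadjusted p, no share of all genes is given. At unadjusted p under 0.05 the counts against C19 were 1 (R7), 5 (R9), 5 (R11) and 6 (R7 to R13), and 2 between R19 and R7 to R13. By the exact permutation test, run on the genes of the set only and so without a share of all genes, 1 gene differed between R19 and C19. Over single libraries left out, the counts ran from 1 to 4 (R7 against HF5), 0 to 2 (R11 against C19) and 0 to 1 (R19 against R7 to R13). Signs reversed for Npr1 and Corin. Under quantile normalization Npr1 and Corin in R19 against C19 became 0.0044 and 0.011, and with single libraries left out they ran from -0.11 to 0.057 and from -0.11 to 0.12. Corin, over single libraries left out, ran from -0.58 to 0.25 in HF5 against C19 and from -0.26 to 0.56 in R19 against HF5, and with HF5 library 3 as the only HF library it was -0.86 and 0.85. The cause of these shifts was not tested. No paired analysis was possible because the columns carry no number that links animals across groups. Absolute depth is unknown, so genes near 0 such as Nppc have no stated limit, and groups of 2 libraries give wide intervals.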
